A study of Mus musculus with 13 samples.

Results

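The genes described here encode insulin-like growth factor 1 (Igf1), the receptors that bind it or its relatives (Igf1r, Igf2r and Insr) and 6 IGF-binding proteins (Igfbp2 to Igfbp7). They were found by symbol in the deposited table, which lists 53465 genes, and all 10 were present and passed the filter on low values, so that all 10 were among the 17277 genes tested. Levels are given as TPM, a transcript abundance that corrects for gene length and sums to the same total in every library. Bulk RNA was measured in 3 ovaries of wild-type (WT) C57BL/6 female mice and in 10 MP EPO-GEMM tumors (genotype Myc;p53-/-). EPO-GEMM stands for a mouse model made by electroporation: the ovary of a C57BL/6 female aged 8 to 12 wk was injected with plasmids for CRISPR-Cas9 disruption of Trp53 and for transposon-borne MYC, and an electric pulse carried them into cells. The labels list both groups as non-treated. Neither a promoter nor a Cre restricted the plasmids to 1 cell type, the tumors were described as oligoclonal, and the age of the mice at tissue harvest is not given in the sources used here. Whether each library came from its own mouse is not stated either, so P values measure the spread between these samples.

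The IGF system couples a soluble ligand to a receptor tyrosine kinase. IGF1 binds IGF1R and, through IRS adaptor proteins, activates PI3K and AKT, whereas IGF2R carries no kinase and takes IGF2 up for degradation in lysosomes. IGF-binding proteins hold most of the ligand outside cells, where proteases cut them and set IGF1 free. In the ovary IGF1 acts with gonadotropins on granulosa cells, the somatic cells that surround the oocyte.

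The submitters' library names carry 1 of 3 numbers, called here the first (the 3 WT ovaries and MP tumors 1 to 3), the second (MP tumors 4 to 6) and the third (MP tumors 7 to 10). What the number stands for is not stated, and no WT ovary carries the second or the third, so the groups were also compared among the 6 libraries of the first number alone. Reads worked back from the table ranged from 31445004 to 64013840 in WT ovaries and from 3892690 to 19906507 in MP tumors. In MP2 the 10 most abundant genes took 55.1% of the TPM, against 7.92% to 20.6% in the other libraries. Trp53 RNA ranged from 80.7 to 85.4 TPM in WT ovaries and from 4.30 to 187 TPM in MP tumors (log2 fold change -2.23, adjusted P = 0.0579 by limma), and mouse Myc, which need not count a transgene, from 126 to 129 TPM and from 7.09 to 419 TPM.

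Because the tumors carry a MYC vector, the promoters of 4 genes that the results turn on are shown, with the letters CACGTG in capitals, the E-box that MYC binds with its partner MAX. Igfbp2 and Igf2r are the genes whose promoters hold an E-box and Igfbp5 and Igfbp7 are those that passed the test as lower in MP tumors. For Igfbp7, which holds no E-box, the capitals mark instead the letters GGGCGG (on the other strand CCGCCC), the GC box bound by SP1. Sequences are RefSeq promoters of GRCm38.p6, from 250 bases before to 50 bases after a transcription start, written 5′ to 3′ on the gene's strand. They matched 9 of the 10 genes, Insr being the other.
Igfbp2 (chr1:72824230-72824529, plus strand): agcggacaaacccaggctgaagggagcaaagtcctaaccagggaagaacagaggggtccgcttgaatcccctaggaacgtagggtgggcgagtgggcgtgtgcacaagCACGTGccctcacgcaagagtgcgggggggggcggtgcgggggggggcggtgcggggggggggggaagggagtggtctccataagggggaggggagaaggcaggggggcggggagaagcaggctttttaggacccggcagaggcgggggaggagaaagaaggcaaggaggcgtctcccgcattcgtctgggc
Igf2r (chr17:12769657-12769956, minus strand): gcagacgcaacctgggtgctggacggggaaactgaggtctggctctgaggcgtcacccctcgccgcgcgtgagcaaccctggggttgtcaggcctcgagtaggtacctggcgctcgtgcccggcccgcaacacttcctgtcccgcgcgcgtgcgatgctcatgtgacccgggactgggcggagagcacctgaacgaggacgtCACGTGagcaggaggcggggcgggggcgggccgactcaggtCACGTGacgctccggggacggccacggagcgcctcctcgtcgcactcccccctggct
Igfbp5 (chr1:72874816-72875115, minus strand): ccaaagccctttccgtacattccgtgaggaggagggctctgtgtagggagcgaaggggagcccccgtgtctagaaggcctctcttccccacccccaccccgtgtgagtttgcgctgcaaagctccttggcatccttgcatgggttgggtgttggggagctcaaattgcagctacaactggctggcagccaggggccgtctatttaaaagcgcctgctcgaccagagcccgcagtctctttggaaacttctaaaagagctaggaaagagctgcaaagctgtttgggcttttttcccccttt
Igfbp7 (chr5:77407996-77408295, minus strand): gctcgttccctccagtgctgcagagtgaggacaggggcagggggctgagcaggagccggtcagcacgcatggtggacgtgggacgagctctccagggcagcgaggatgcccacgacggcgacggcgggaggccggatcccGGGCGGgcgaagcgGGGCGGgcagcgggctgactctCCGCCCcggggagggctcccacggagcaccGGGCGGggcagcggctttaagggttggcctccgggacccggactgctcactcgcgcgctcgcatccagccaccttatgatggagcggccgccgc
Igfbp2 held 1 E-box, which begins 142 bases before the start, and Igf2r held 2, beginning 48 and 7 bases before it. CACGTG, which reads the same on both strands, was found in 7.15% of the 32851 promoters of the table. The other 7 promoters that matched held none. The GC box was found on either strand in 35.7% of all promoters. It was present 4 times in Igfbp7, 3 times each in Igfbp2 and Igf2r and 2 times in Igf1r, and in none of the other 5. The third motif searched, TATAAA on either strand, was present in 13.6% of all promoters and in those of Igfbp4, 28 bases before the start, and Igfbp6. Igf1, Igfbp3 and Igfbp5 held none of the 3 motifs in this window. A match of letters is a description of the window and was not tested as a binding site.

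Across all 13 libraries, Igfbp5 and Igfbp7 were lower in MP tumors than in WT ovaries and the other 8 genes did not pass the test. The fit was made with limma on log2(TPM + 1), with a Benjamini-Hochberg adjustment over all 17277 genes and a threshold of 0.05. Thus 2 of 10 were lower and 0 were higher, where 14.3% of all genes tested were lower and 2.51% were higher. At an unadjusted P of limma under 0.05, 4 were lower and 0 higher, where 27.4% and 5.63% of all genes were. Limma-voom on the recovered reads called 5 lower and 1 (Igfbp2) higher, where it called 23.4% of all genes lower and 10.9% higher. The median log2 fold change was -2.10 over the 10 genes and -0.58 over all genes. Median-of-ratios scaling, which sets the middle gene of each library level, moved the median of all genes to -0.02 and the share of calls that were higher from 15.0% to 40.2%, with 11% of genes lower and 7.39% higher. Igfbp7 was then lower, Igfbp3 was higher and Igfbp5 missed the threshold (adjusted P = 0.0707). In bulk tissue, fewer cells of a type and less RNA per cell cannot be told apart.

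**Figure D1:**
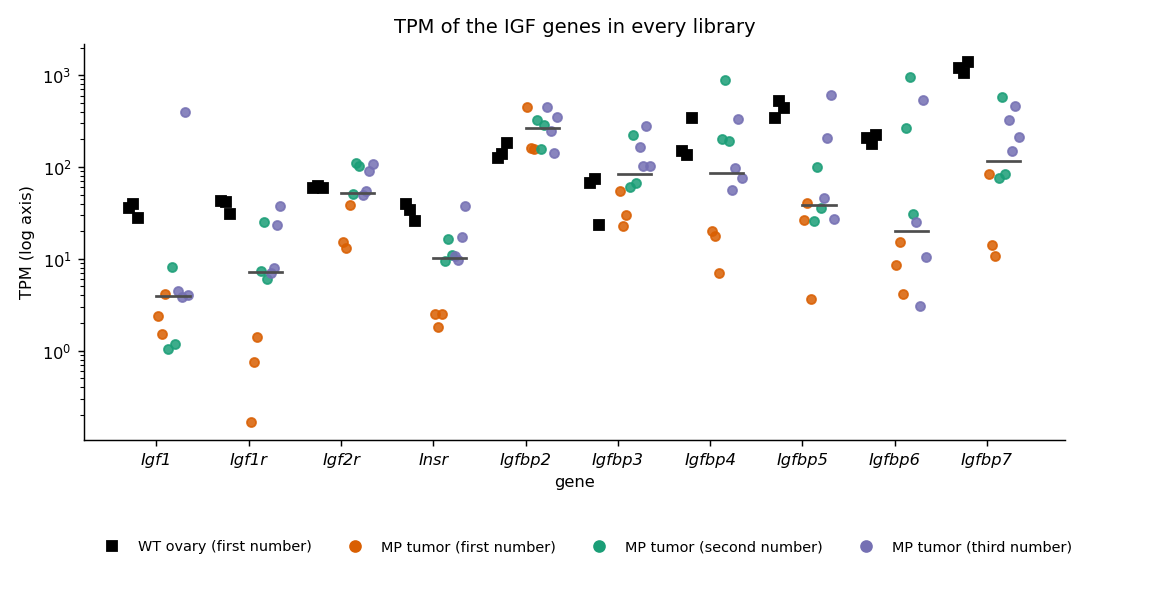
TPM of each gene (log axis) in the 3 WT ovaries (black squares) and 10 MP tumors (circles, coloured by the number in the library name), with a bar at the tumor median. Igfbp7 is the gene whose tumors all lie below every WT ovary, and MP9 stands at 402 TPM of Igf1 while the other 9 tumors lie at 8.22 TPM or less.

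Among the 6 libraries of the first number, 8 of the 10 genes were lower in MP tumors, all but Igfbp2 and Igfbp3, and none was higher by limma (0 also at an unadjusted P under 0.05). There 57.3% of all genes tested were lower and 6.44% higher, with a median log2 fold change of -1.19 over all genes and -3.53 over the 10. With median-of-ratios scaling of the same libraries 33% of genes were lower and 25.8% higher, and the 10 genes divided into 7 lower, 1 higher (Igfbp2) and 2 not called (Igf2r and Igfbp3). Without the 3 tumors of that number, a comparison chosen after the data were seen, Igfbp7 alone was called (log2 fold change -2.53, adjusted P = 0.0143), 1 of 10 beside 13.5% of all genes lower and 4.68% higher.

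The ligand gene Igf1, on chromosome 10 (87858265 to 87937042, GRCm38), stood at 35.5, 39.8 and 27.6 TPM in the WT ovaries. In MP tumors 1 to 10 it stood at 2.37, 1.53, 4.17, 1.04, 8.22, 1.18, 4.42, 3.86, 402 and 4.02 TPM. 9 tumors therefore lay below every WT ovary, and MP9 lay above all of them. With all tumors the log2 fold change was -2.47 ± 1.17 (SE), and the gene missed the threshold (adjusted P = 0.153). Without MP9 it fell by 3.14 on the log2 scale (SE 0.48, adjusted P = 0.000392), and among the 6 libraries of the first number by 3.31 (SE 0.33, adjusted P = 0.000113). The lowest tumor value rested on 18 reads in MP4, whereas no WT ovary had fewer than 3633.

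The high value of Igf1 in MP9 was not shared by most of its neighbours on the chromosome. On the log2(TPM + 1) scale Igf1 in MP9 lay 6.37 above the median of the other tumors, and 17 of all genes tested, Igf1 included, reached that. The 15 tested genes within 1000 kb of Igf1 had a median of 0.72, against 0.55 over all genes, with Mybpc1, a myosin-binding protein gene, highest at 5.14 and Gnptab, which encodes the enzyme that begins the mannose 6-phosphate tag, next at 1.55. The sum of the fibroblast and stroma markers was also highest there: it was 4141 TPM in MP9, 2130 in MP5 and 74.5 to 523 in the other 8 tumors, against 1261 to 2209 in WT ovaries. The members of the list differed. Pdgfra, Pdgfrb and Tcf21 lay below every WT ovary in every tumor. They reached at most 56.9, 85.2 and 19.5 TPM there, against at least 67.9, 89.9 and 85.4 TPM in WT ovaries. Dcn, Lum, Col1a1 and Col3a1 did not lie below in every tumor. The part of these cells in the Igf1 level was not tested.

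The genes whose levels followed Igf1 most closely over the 10 tumors, among 8829 with a mean of at least 10 TPM in tumors, were Bmi1 (Pearson r = 0.94), Lum (r = 0.91) and Smpd3 (r = 0.90). Bmi1 encodes a Polycomb protein, Lum the collagen-binding proteoglycan lumican and Smpd3 a sphingomyelinase. Lum stood at 910 TPM in MP9 and at 2.84 to 82.7 TPM in the other tumors. Without MP9 the coefficients were 0.55, 0.62 and 0.42, so these likenesses rest on that tumor in large part.

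The kinase receptor genes were low in most tumors and lowest in the tumors of the first number. Igf1r, the IGF1 receptor gene (chromosome 7, 67952827 to 68233668), stood at 43.2, 41.7 and 30.5 TPM in WT ovaries and in MP tumors 1 to 10 at 0.166, 0.761, 1.39, 7.37, 25.1, 6.05, 6.93, 7.89, 23.3 and 37.3 TPM. 9 tumors lay below every WT ovary, and MP10 lay inside the WT range. The log2 fold change was -2.40 ± 0.92 (SE, adjusted P = 0.0837 by limma). Igf1r also missed the threshold without WT1 (adjusted P = 0.24), WT2 (0.228) or WT3 (0.195). Without any 1 of MP1 to MP9 the adjusted P was 0.0526 to 0.114. Only without MP10 was Igf1r called (-2.66, adjusted P = 0.0418). Among the libraries of the first number Igf1r fell by 4.52 on the log2 scale (SE 0.33, adjusted P = 2.94e-05), although the lowest tumor, MP1, held 20 reads of the gene.

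Insr (chromosome 8, 3122061 to 3279617), whose product, the insulin receptor, also forms hybrids with IGF1R, followed a like course. It stood at 39.2, 34.3 and 26.1 TPM in WT ovaries and at 2.53, 1.82, 2.53, 9.42, 16.4, 11.1, 10.8, 9.76, 17.4 and 37.8 TPM in MP tumors 1 to 10. Again 9 tumors lay below every WT ovary and MP10 lay inside their range. The log2 fold change was -1.80 ± 0.69 (SE, adjusted P = 0.0825 by limma) with all tumors. Insr also missed the threshold without WT1 (adjusted P = 0.255), WT2 (0.223) or WT3 (0.185). Without any 1 of MP1 to MP9 the adjusted P was 0.0634 to 0.1125. Only without MP10 was Insr called (-2.03, adjusted P = 0.0325). Among the libraries of the first number it fell by 3.36 (adjusted P = 3.99e-05).

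Igf2r (chromosome 17, 12682406 to 12769664), the scavenger receptor gene, lay on either side of its WT level. WT ovaries stood at 59.8, 62.1 and 58.7 TPM, and MP tumors 1 to 10 at 15.4, 13.04, 38.6, 50.9, 111, 104, 49.6, 54.5, 90.7 and 108 TPM. 6 tumors lay below and 4 lay above every WT ovary. The log2 fold change of -0.22 ± 0.60 (SE, adjusted P = 0.809) turned to 0.48 with median-of-ratios scaling (adjusted P = 0.344). Among the libraries of the first number it fell by 1.55 (adjusted P = 0.0149), but with scaling the change there was -0.02 (adjusted P = 0.964).

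Ratios between receptor genes within a library do not depend on how the library is scaled. The log2 ratio of Igf1r to Igf2r lay between -0.95 and -0.47 in WT ovaries and between -6.54 and -1.53 in MP tumors, with all 10 tumors below every WT ovary. The log2 ratio of Insr to Igf2r lay between -1.17 and -0.61 in WT ovaries and between -3.93 and -1.51 in tumors, again without overlap. Igf1r and Insr were closer to each other: their log2 ratio lay between 0.14 and 0.28 in WT ovaries and between -3.93 and 0.61 in tumors, with 8 tumors below and 2 above the WT range. These ratios were formed after the values were seen and are given without a test. How often the ratio of other gene pairs separates the groups was not computed. For single genes, 16.4% of those tested had every tumor below every WT ovary.

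**Figure D2:**
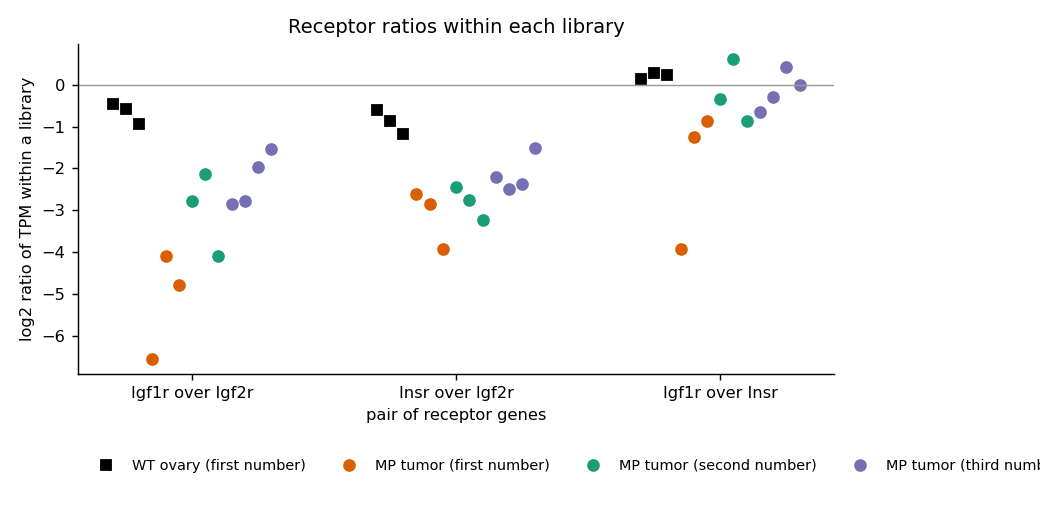
Log2 ratio of TPM between pairs of receptor genes in each library, with WT ovaries as black squares and MP tumors as circles coloured by the number in the library name. All 10 tumors lie below the WT ovaries for Igf1r over Igf2r and for Insr over Igf2r, and MP1 is lowest for Igf1r over Igf2r at -6.54.

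Of the binding protein genes, Igfbp7 (chromosome 5, 77349240 to 77408041) was the most abundant in WT ovaries and the one whose groups did not overlap. It encodes a secreted protein of vessel walls and stroma that binds IGF1 weakly. WT ovaries stood at 1211, 1055 and 1393 TPM, and MP tumors 1 to 10 at 83.1, 14.0, 10.7, 75.8, 579, 84.3, 324, 148, 467 and 210 TPM. Every tumor lay below every WT ovary, as was the case for 16.4% of all genes tested. Igfbp7 fell by 3.46 on the log2 scale (SE 0.99, adjusted P = 0.0277) with all libraries and by 5.63 (SE 0.72, adjusted P = 0.000359) among those of the first number. It missed the threshold when any WT ovary was left out, with adjusted P = 0.107 without WT1, 0.0942 without WT2 and 0.119 without WT3. Its exons share 85 bases, 7.03% of their length, with Polr2b on the other strand, and whether the counting used strand is not stated.

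Markers of several cell types were lower in the same tumors as Igfbp7. The summed TPM of 6 endothelial genes, Pecam1, Cdh5, Kdr, Tek, Emcn and Tie1, was 304 to 322 in WT ovaries and 6.30 to 223 in MP tumors, all 10 of which lay below, and 3 of the 6 were called lower. None of these markers was at 0 in any tumor. The sums of the granulosa, theca and luteal, smooth muscle and pericyte, and oocyte markers also lay below every WT ovary in all 10 tumors. The fibroblast and stroma sum and the epithelial sum did so in 8 tumors each and the macrophage sum in 6. The stroma sum of MP9, 4141 TPM, lay above the WT maximum of 2209 TPM. The part of these cells in the level of Igfbp7 was not tested.

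Igfbp5, which binds IGF1 and also the extracellular matrix, lies on chromosome 1 (72857932 to 72874884), tail to tail with Igfbp2 (72824503 to 72852474), with 5.46 kb between them. It stood at 341, 520 and 438 TPM in WT ovaries and at 26.7, 40.7, 3.61, 26.1, 99.2, 36.1, 45.8, 205, 606 and 27.2 TPM in MP tumors 1 to 10. 9 tumors lay below every WT ovary and MP9 lay above them all. Igfbp5 fell by 3.11 on the log2 scale (SE 0.99, adjusted P = 0.0439), close to the threshold. It missed the threshold without any 1 of the WT ovaries (adjusted P = 0.126 without WT1, 0.158 without WT2 and 0.151 without WT3) and without MP1 (0.0651), MP2 (0.0582), MP4 (0.0591), MP6 (0.0631), MP7 (0.0611) or MP10 (0.0529), while without MP9 the change was -3.51 (adjusted P = 0.00688). Among the libraries of the first number it fell by 4.61 (adjusted P = 0.00143).

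Its neighbour Igfbp2, which carries an RGD sequence and binds IGF2 as well as IGF1, was at or above its WT level in most tumors. WT ovaries stood at 124, 138 and 182 TPM, and MP tumors 1 to 10 at 445, 161, 156, 325, 156, 284, 447, 247, 141 and 353 TPM. 6 tumors lay above every WT ovary and none below. The log2 fold change was 0.76 ± 0.40 (SE, adjusted P = 0.189) over all libraries and 0.61 ± 0.48 (SE, adjusted P = 0.294) among those of the first number. With median-of-ratios scaling of the latter Igfbp2 rose by 2.18 on the log2 scale (adjusted P = 0.002), so that its call there depends on the scaling. Over all libraries limma-voom on the recovered reads called it higher (log2 fold change 1.10, adjusted P = 0.0442). Of the 10 genes it varied least among tumors, with a range of 1.66 on the log2(TPM + 1) scale, against 3.00 to 7.89 for the others. The log2 ratio of Igfbp2 to Igfbp5 within a library lay between -1.92 and -1.27 in WT ovaries and above 0 in 9 tumors (0.27 to 5.44), with MP9 at -2.11.

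Igfbp3 (chromosome 11, 7206086 to 7213923), which encodes the main carrier of IGF1 in serum, overlapped between the groups. WT ovaries stood at 67.8, 73.8 and 23.3 TPM, and the tumors had a lowest value of 23, a median of 84.7 and a highest of 281 TPM, with 5 above every WT ovary. The log2 fold change was 0.76 ± 0.67 (SE, adjusted P = 0.431) over all libraries. It turned to -0.53 among the libraries of the first number (adjusted P = 0.413) and reached 1.46 with median-of-ratios scaling of all libraries (adjusted P = 0.0331).

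Igfbp4 and Igfbp6 reached the highest TPM of any of the 10 genes in a tumor, both in MP5. Igfbp4 (chromosome 11, 99041244 to 99054392), whose product restrains IGF1 in the follicle until the protease PAPP-A cuts it, stood at 151, 135 and 339 TPM in WT ovaries and at 20.3, 17.9, 6.92, 202, 898, 192, 56.1, 98.3, 336 and 75.9 TPM in MP tumors 1 to 10. 6 tumors lay below every WT ovary and MP5 lay above them, and the log2 fold change was -1.20 ± 1.10 (SE, adjusted P = 0.451). Igfbp6 (chromosome 15, 102144362 to 102149511), whose product prefers IGF2, stood at 206, 180 and 224 TPM in WT ovaries and at 8.51, 15.4, 4.10, 268, 965, 30.7, 25.2, 3.08, 534 and 10.4 TPM in the tumors. 7 tumors lay below every WT ovary and MP4, MP5 and MP9 lay above, and the log2 fold change was -2.48 ± 1.45 (SE, adjusted P = 0.242). Among the libraries of the first number Igfbp4 fell by 3.70 (adjusted P = 0.000599) and Igfbp6 fell by 4.46 (adjusted P = 0.000114).

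The genes most like Igfbp6, the gene with the largest range among tumors, were Rspo1 (r = 0.98), Ildr2 (r = 0.95) and Plat (r = 0.95), and the coefficients without MP5 were 0.98, 0.93 and 0.93. Rspo1 encodes R-spondin 1, a WNT agonist needed for ovary development, and Plat encodes tissue plasminogen activator. Rspo1 stood at 105, 230 and 123 TPM in MP4, MP5 and MP9, against 0.574 to 11.5 TPM in the other 7 tumors and 15.5 to 18.1 TPM in WT ovaries. The same 3 tumors were thus high in Igfbp6 and Rspo1.

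The make-up of the binding protein RNA differed between the groups. In WT ovaries Igfbp7 took 50.2% to 57.6% of the summed TPM of the 6 genes, Igfbp5 16.2% to 24.8% and Igfbp2 5.90% to 6.996%. In MP tumors Igfbp7 took 5.05% to 30.4%, below every WT ovary in all 10, and Igfbp3 took 6.25% to 15.6%, above the WT ovaries (0.895% to 3.51%) in all 10. Igfbp2 was the most abundant of the 6 in 8 tumors, with 30.7% to 74.0% of the sum. The exceptions were MP5, where Igfbp6 led with 33.1% and Igfbp2 took 5.34%, and MP9, where Igfbp5 led with 25.6% and Igfbp2 took 5.94%. The sum itself was 2101 to 2599 TPM in WT ovaries, 2918 in MP5, 2365 in MP9 and 211 to 1064 TPM in the other 8 tumors. Shares add to a whole, so a rise of 1 gene's share lowers the others, and they are given without a test. How often shares within other sets of genes separate the groups was not computed.

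**Figure D3:**
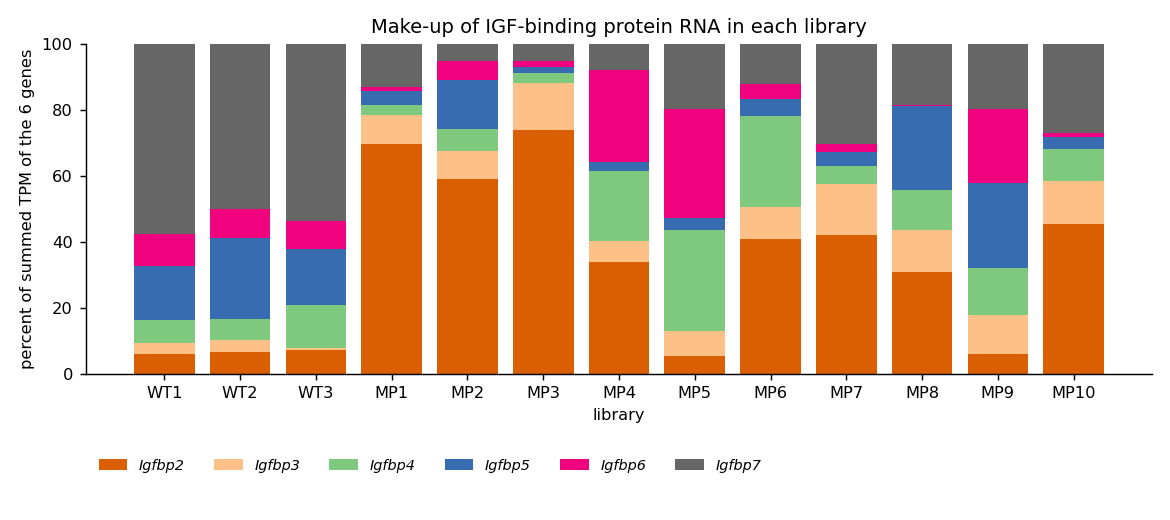
Stacked bars of each binding protein gene's percent of the summed TPM of the 6 genes in each library (bars fill from 0 to 100). Igfbp7 fills 50.2% to 57.6% of the WT bars, while Igfbp2 is the largest part of every tumor bar but those of MP5 and MP9.

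MP5 and MP9 were also the 2 tumors with the highest marker sums of 4 cell types, the fibroblasts and stroma (2130 and 4141 TPM), endothelium (223 and 171 TPM), macrophages (237 and 194 TPM) and smooth muscle and pericytes (1251 and 282 TPM). The next tumor stood at 523 TPM for stroma (MP7), 104 TPM for endothelium (MP7), 176 TPM for macrophages (MP8) and 253 TPM for smooth muscle and pericytes (MP10). In WT ovaries the macrophage sum was 151 to 296 TPM and that of smooth muscle and pericytes 1378 to 1659 TPM. Of the latter list Myh11, Rgs5 and Tagln lay below every WT ovary in every tumor, whereas Acta2 and Cspg4 did not. Whether these cells bear on the make-up of the binding proteins was not tested.

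Tumors differed among themselves along the number in the library name. The 3 tumors of the first number had less Igf1r, Igf2r, Insr, Igfbp3, Igfbp4 and Igfbp7 than the 7 others, 6 of 10 genes lower and 0 higher by limma (7 and 0 at an unadjusted P under 0.05), where 30.1% of all genes tested were lower and 1.29% higher. Igf1r was 0.166 to 1.39 TPM in these and 6.05 to 37.3 TPM in the others (log2 difference -3.03 ± 0.59 SE, adjusted P = 0.00226). Igfbp4 was 6.92 to 20.3 TPM and 56.1 to 898 TPM (-3.58 ± 0.72 SE, adjusted P = 0.0028). Insr was 1.82 to 2.53 TPM and 9.42 to 37.8 TPM (-2.23 ± 0.44 SE, adjusted P = 0.00253). For each of the 6 genes every tumor of the first number lay below every other tumor, apart from Igfbp7, for which MP1 at 83.1 TPM lay above MP4. These 6 were picked by the call in the same comparison, so this separation is in part built in. The share of all genes that separate in this way was not computed. With median-of-ratios scaling, where 9.89% of genes were lower and 13.6% higher, Igf1r, Insr and Igfbp4 were still called lower and Igf2r, Igfbp3 and Igfbp7 were not. That scaling moved the median of all genes from -0.84 to -0.06 and the share of calls that were higher from 4.12% to 58.0%. Igfbp3 missed the threshold without MP2 (adjusted P = 0.0738) or MP3 (adjusted P = 0.0527). Igf1 and Igfbp2 overlapped between the 2 sets of tumors, with adjusted P = 0.486 and 0.733. The number cannot be told apart from the tumors that carry it. Depth went in part with the number: the tumors of the first number held 10564737 to 19906507 recovered reads. Of the other tumors MP8 held 17178256, and the rest held 3892690 (MP5) to 8998620 (MP9). The part of depth in these differences was not tested.

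**Figure D4:**
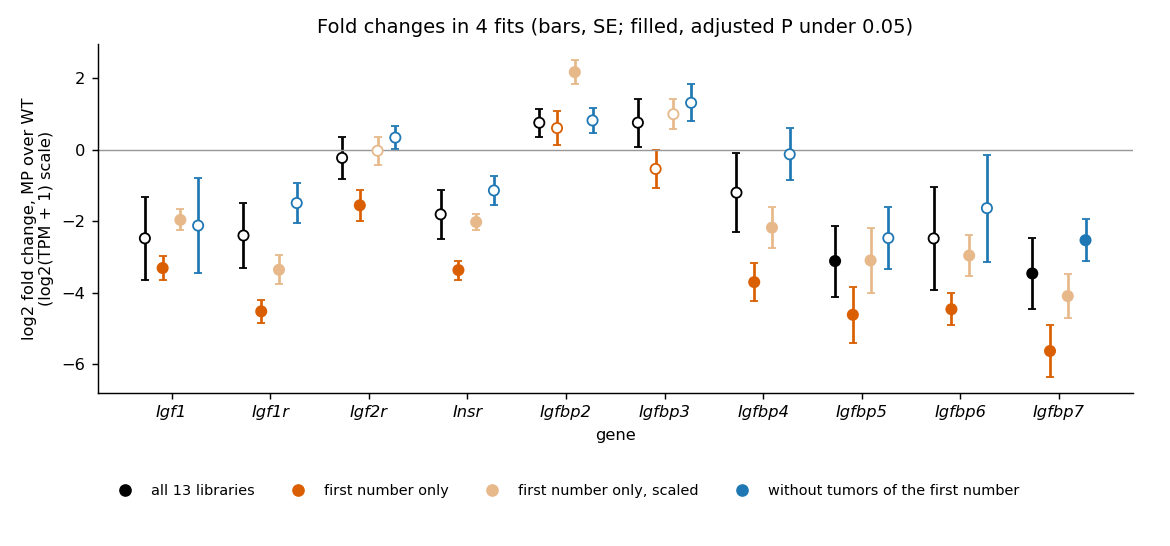
Log2 fold change of each gene (MP over WT, log2(TPM + 1) scale, bars SE) with all libraries, with the libraries of the first number as deposited and scaled, and with the other 7 tumors against the WT ovaries, where filled circles passed an adjusted P of 0.05. Igfbp7 is filled in all 4 fits, Igfbp2 lies above 0 in all 4, and Igf2r and Igfbp3 lie on either side of 0.

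Over the 10 tumors, some of the genes varied together. Of the 45 pairs, 38 had a Pearson r above 0, and 16 passed a permutation test of r with 100000 resamples (2-sided, Benjamini-Hochberg over the pairs), all with a positive r. By Spearman's rho 4 passed, all of them among the 16. The closest were Igfbp3 with Igfbp7 (r = 0.97, rho = 0.95, adjusted P = 0.0009 and 0.00495 by permutation) and Igf1r with Insr (r = 0.96, rho = 0.87, adjusted P = 0.0018 and 0.0308 by permutation). The other two were Igf2r with Insr (r = 0.89, rho = 0.90) and Igf1r with Igf2r (r = 0.90, rho = 0.85). Without the 2 tumors farthest from the median of the first gene, r was 0.97 for Igfbp3 with Igfbp7, 0.96 for Igf1r with Insr, 0.80 for Igf2r with Insr and 0.84 for Igf1r with Igf2r. The share of pairs of other genes that would pass was not computed, and the values were not rescaled. Between the tumors of the first number and the others the median log2 difference of all genes was -0.84. Its part in these pairs was not tested.

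Within the numbers of the library names the tumors were too few for 1 pair to pass alone. When values were centred on the mean of each number and every reordering of the tumors within the numbers was run (864, smallest possible P = 0.00116, or 0.0521 when adjusted for 1 pair alone), 0 of 45 pairs passed and 10 had an unadjusted P under 0.05 by this exact permutation test, which was chosen after the data were seen. Centred r was 0.92 for Igfbp3 with Igfbp7, 0.84 for Igf1r with Insr, 0.67 for Igf2r with Insr and 0.69 for Igf1r with Igf2r (adjusted P = 0.195, 0.195, 0.195 and 0.208 by exact permutation). Igfbp2 was in none of the pairs that passed. Without centring its 9 coefficients lay between -0.48 with Igf1 and 0.16 with Igfbp7, and centred between -0.67 with Igf1 and 0.04 with Igfbp7. The coefficients with the other 5 binding proteins rest on MP5 and MP9: without these 2 tumors r, not centred, was 0.76 with Igfbp3, 0.45 with Igfbp4, 0.27 with Igfbp5, 0.31 with Igfbp6 and 0.85 with Igfbp7. Igf1 with its receptor Igf1r had r = 0.47 without centring (rho = 0.47, adjusted P = 0.273 and 0.297 by permutation).

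Chromosome-wide shifts were seen in some tumors at chromosomes that carry these genes. Relative to all genes, the median of chromosome 10, which holds Igf1, was -0.47, -0.51 and -0.45 on the log2 scale in MP5, MP6 and MP8, and that of chromosome 11, which holds Igfbp3 and Igfbp4, was -0.56 in MP9. Igfbp3 was highest of all tumors in MP9, at 281 TPM, and the part of these shifts in the levels was not tested. The other 6 chromosomes of the 10 genes lay within 0.30 of 0 in every tumor.

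The rest of the pathway was read from 6 lists of 68 genes, of which 61 passed the filter. In the fit of all libraries 15 of these were lower and 0 were higher, where 14.3% and 2.51% of all genes were, and the median log2 fold change was -1.31 against -0.58 over all genes. At an unadjusted P of limma under 0.05, 28 were lower and 0 higher (27.4% and 5.63% of all genes). Limma-voom on the recovered reads called 26 lower and 1 higher (23.4% and 10.9% of all genes), and median-of-ratios scaling gave 13 lower and 2 higher (11% and 7.39% of all genes). Among the libraries of the first number, 53 of 61 were lower where 57.3% of all genes were.

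The other ligands and carriers were mostly at low levels. Of 7 genes 2 passed the filter, Igf2 and Ins2, and neither was called (0 of 2 at an unadjusted P of limma under 0.05, and 0 with limma-voom). Igf2, the fetal relative of Igf1, was named after its values were seen: it stood at 0.0986 to 0.266 TPM in WT ovaries, at 41.6, 37.7 and 3.54 TPM in MP4, MP5 and MP6 and at 2.58 TPM or less in the other tumors (log2 fold change 1.40, adjusted P = 0.377). Igfbp1 was listed at 0 in all 10 tumors and was not tested.

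Of the genes that cut binding proteins or inhibit the cutting, Htra1, Timp1 and Pappa were lower in the fit of all libraries. Of 8 tested 3 were lower and 0 higher, beside 14.3% and 2.51% of all genes, with a median of -2.27 (all genes, -0.58). Htra1, a serine protease that cleaves IGF-binding proteins, averaged 824 ± 95.6 TPM in the WT ovaries (SD, n = 3), against 45.5 ± 63.2 TPM in the tumors (SD, n = 10), and fell by 5.14 on the log2 scale (adjusted P = 0.00197 by limma). Timp1, an inhibitor of metalloproteinases, fell by 2.72 (adjusted P = 0.00494), and Pappa, the protease of Igfbp4, by 2.38 (adjusted P = 0.0209). Htra1 and Timp1 lay below every WT ovary in all 10 tumors and Pappa in 8, with a tumor median of 0.035 TPM. Stc2, an inhibitor of PAPP-A named after its values were seen, had a log2 fold change of 1.38 (adjusted P = 0.167) and was called higher with median-of-ratios scaling (2.04, adjusted P = 0.00204) and with limma-voom (1.66, adjusted P = 0.035), but stood at -0.11 within the first number (adjusted P = 0.822). Pappa is made by granulosa cells, whose 7 markers were all lower in MP tumors, and the part of these cells was not tested.

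Of the 7 genes of growth hormone signaling 4 were lower and 0 higher, beside 14.3% and 2.51% of all genes, with a median of -1.84 (all genes, -0.58). Socs2, which growth hormone induces and which damps its receptor, fell by 3.48 (SE 0.57, adjusted P = 0.000621), with WT and tumor means of 84.0 ± 15.5 (SD, n = 3) and 8.09 ± 6.03 TPM (SD, n = 10) and no overlap. Stat5a, the transcription factor of the pathway, fell by 2.45 (adjusted P = 0.0122), and the kinase gene Jak2 fell by 2.30 (adjusted P = 0.04). The growth hormone receptor gene Ghr, named after its values were seen, had a log2 fold change of -1.84 (adjusted P = 0.15).

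None of the 10 tested adaptors and brakes of the receptors was called by limma over all libraries, where 14.3% of all genes were lower, and their median was -1.07. At an unadjusted P under 0.05, 3 of them were lower and 0 higher, beside 27.4% and 5.63% of all genes. Limma-voom called 3 lower and 0 higher, beside 23.4% and 10.9% of all genes. Within the first number 9 of 10 were lower and 0 higher, beside 57.3% and 6.44% of all genes, and 7 were lower and 1 higher with scaling, beside 33% and 25.8%. With the length trend removed 1 was lower and 0 higher over all libraries, where 2590 of all 17277 genes were lower and 469 higher. In the PI3K-AKT-mTOR list 3 of 24 were lower and 0 higher, beside 14.3% and 2.51% of all genes, and the list's median was -1.11. At an unadjusted P under 0.05, 8 of 24 were lower (27.4% of all genes), limma-voom called 8 lower (23.4% of all genes), and 22 were lower within the first number (57.3% of all genes). The 3 called over all libraries encode subunits of PI3K. Pik3r1, which encodes the regulatory subunit p85α that restrains and stabilizes the catalytic subunits, fell by 4.10 (SE 0.68, adjusted P = 0.000675), its WT and tumor means being 112 ± 14.2 (SD, n = 3) and 7.85 ± 7.33 TPM (SD, n = 10), with every tumor below every WT ovary. Pik3cd, a catalytic subunit of leukocytes, fell by 2.34 (adjusted P = 0.0148), and Pik3r3, a further regulatory subunit, fell by 2.20 (adjusted P = 0.0292), although Pik3r3 missed the threshold with median-of-ratios scaling (adjusted P = 0.0624). Under that scaling Eif4ebp1, a translation repressor that mTOR inactivates, was called higher (log2 fold change 1.32), and was named after its values were seen.

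Genes of FOXO factors, which AKT keeps out of the nucleus, and genes they induce were lower in 5 of 10 cases and higher in 0, beside 14.3% and 2.51% of all genes, with a median of -1.82 (all genes, -0.58). Foxo1 fell by 4.81 (SE 0.99, adjusted P = 0.00394), with WT and tumor means of 171 ± 65.3 (SD, n = 3) and 12.0 ± 20.96 TPM (SD, n = 10). Bcl6, a transcriptional repressor, fell by 3.17 (adjusted P = 0.00189) and Sesn3, a sestrin that restrains mTORC1, by 2.77 (adjusted P = 0.0246). Foxo1 and Bcl6 lay below every WT ovary in all 10 tumors and Sesn3 in 9.

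**Figure D5:**
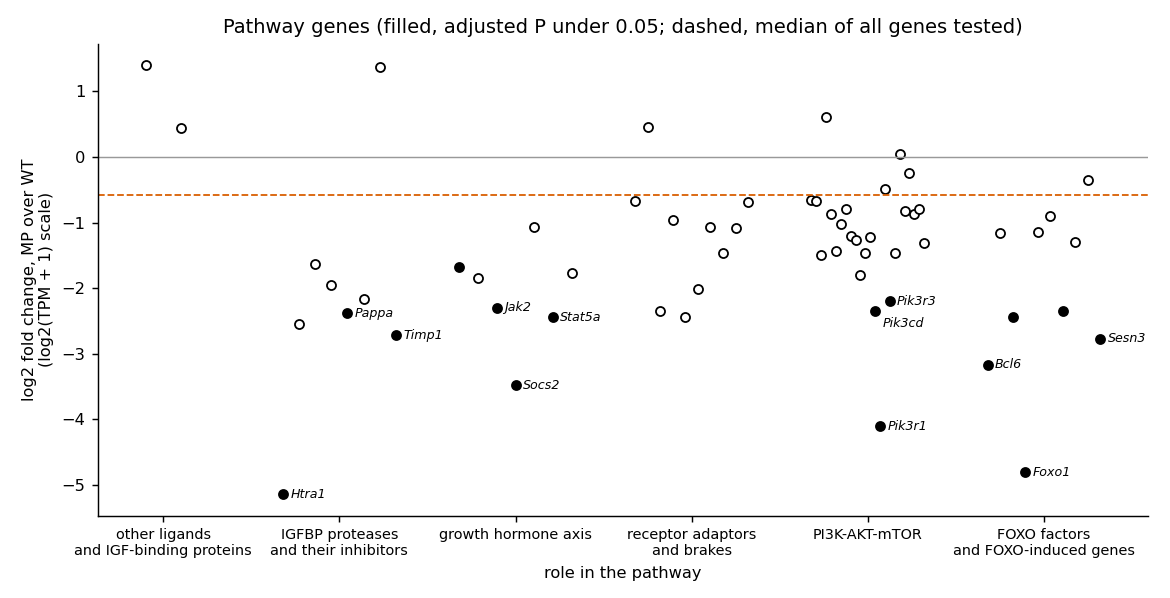
Log2 fold change of each tested pathway gene (MP over WT, log2(TPM + 1) scale) by role, where filled circles passed an adjusted P of 0.05 and the dashed line marks the median of all genes tested, -0.58. All 15 filled circles lie below 0, with Htra1 lowest at -5.14.

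Cell type markers showed how far the 2 tissues differ in make-up. The WT ovaries expressed every list fixed for the ovary, and the summed TPM of granulosa markers was 3528 to 6571 in WT ovaries and 5.58 to 1541 in MP tumors. Theca and luteal markers summed to 25024 or more in WT ovaries and to 824 or less in the tumors, and oocyte markers to 225 to 332 and to 22.5 or less. Of the granulosa markers Cyp19a1 and Fshr were at 0 in 9 tumors each and Amh in 2, whereas Fst, Nr5a2, Inha and Foxl2 were at 0 in none. Of the oocyte markers Zp2 was at 0 in 8 tumors, Bmp15 in 7, Zp3 in 4 and Ddx4 in 2, whereas Gdf9 was at 0 in none. All 7 granulosa, 4 of 5 theca and luteal, 3 of 7 stroma, 3 of 6 endothelial, 4 of 5 smooth muscle, 0 of 5 macrophage, 3 of 6 epithelial and 4 of 5 oocyte markers tested were lower, and none was higher by limma, beside 14.3% and 2.51% of all genes. At an unadjusted P under 0.05, 39 of 46 were lower, 3 of the macrophage markers among them, and 0 higher (27.4% and 5.63% of all genes), and limma-voom called 36 lower and 0 higher (23.4% and 10.9% of all genes). Epithelial markers summed to 237 to 267 TPM in WT ovaries and ranged from 5.67 to 1152 TPM in tumors, 8 of which lay below the WT ovaries. The tumors are therefore named here by their label and not by a cell type.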

How the data were processed

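The authors deposited TPM values of every gene in each of the 13 libraries, without pooling of replicates. The submitters' processing notes name FastQC 0.11.5, Trimmomatic 0.36, STAR 2.5.3a, featureCounts 1.6.3 and mouse builds mm10 and GRCm38, whereas the protocol in the labels names a human build, HTSeq and RPKM. Start and end match mouse GENCODE release M21 for 96.2% of genes. Groups came from the sample labels and 0 columns were left unused. Libraries are polyA-selected and read from 1 end per the labels.

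Reads were worked back from TPM times gene length over its smallest step, and 100% of values came out whole within 0.01 of a read. Depth limits the lowest values, and counting intervals were not computed. log2(TPM + 1) was fitted with limma 3.58.1 (trended, robust) in R 4.3.3 over genes that reached 1 TPM in 3 or more libraries, with all libraries in 1 fit, no covariate and a Benjamini-Hochberg adjustment. Fold changes on this scale understate the change of genes at low TPM. Pairs of genes were compared by permutation tests in scipy 1.17.1 with 100000 resamples. The model fit was tested on simulated data. Figures were drawn with matplotlib 3.10.9.

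Named genes are the 10 members, up to 3 genes of each pathway list with the largest change in each direction among those called, and the 3 genes most like Igf1 and like the member with the largest range over tumors. The members, the lists and the tests were chosen with earlier results of these data known. Alternatives varied the pseudocount, filter, scaling, gene-length trend, limma options, libraries, library number and replicate block. The 3 chosen after seeing the data are the scaled fit within the first library number, the fit without its tumors and the permutation of centred values within the numbers.

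Replicate numbers are shared by WT ovaries 1 to 3 and MP tumors 1 to 3. Deviations from the group means of same-numbered libraries had r of -0.10, -0.02 and 0.00, and those of differently numbered libraries ran from -0.06 to 0.10. No pairing by number was seen, and 3 libraries of each group are too few to exclude one.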

Additional observations from a re-analysis of the deposited data

Results flagged for a closer look

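In 4 of the 10 genes 1 tumor stood apart from the other 9 on the TPM scale, its gap to the nearest tumor being a larger part of the range than Dixon's 95% critical value for 10 samples allows, where chance gives about 1 in 20 groups. Igf1 in MP9 was 402 TPM against 8.22 in the next tumor, Igfbp5 in MP9 was 606 TPM against 205, Igfbp4 in MP5 was 898 TPM against 336, and Insr in MP10 was 37.8 TPM against 17.4. On the log2(TPM + 1) scale only Igf1 in MP9 remained beyond that value.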

How the results depend on the processing

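The number of the 10 genes called between MP tumors and WT ovaries was 2 with all libraries. It was 1 with a pseudocount of 0.1 TPM, without a filter on low values and without the tumors of the first library number, and 6 with limma-voom on the recovered reads. It was 8 within the first library number, scaled or not, with the library number as a covariate and with the replicate block, which compares the same 6 libraries. Leaving out 1 library gave 0 to 3, and 0 without WT1, WT2 or WT3. Igf2r turned to 0.48 with median-of-ratios scaling, 0.32 with quantile normalization, 0.14 with the length trend removed, 0.037 with limma-voom and 0.34 without the tumors of the first library number, and Igfbp3 turned to -0.53 within the first library number, with the number as a covariate and with the replicate block. For the tumors of the first library number against the others the count was 6, 3 with median-of-ratios scaling and 5 to 6 without 1 tumor. The pathway count was 15, 53 within the first library number and 45 there with scaling. Pairs of genes that passed were 16, 4 with values centred on each library number and permuted over all tumors, which ignores the fitted means, and 0 with them permuted within the numbers. Over all genes, 433 were higher and 2463 lower, against 1112 and 9902 within the first library number, 1087 and 9803 with the replicate block, 1276 and 1896 with median-of-ratios scaling and 1876 and 4045 with limma-voom. The causes were not tested. The direction of the other 8 genes held under the alternatives run. The fewest reads in a tumor were 18 for Igf1 (MP4), 20 for Igf1r (MP1) and 18 for Igfbp6 (MP10), and what differences this depth can show was not tested.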
